A study of Mus musculus with 14 samples.

Results

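Cytoplasmic ribosomal protein genes encode the protein parts of the ribosome, and the 55 described here (36 of the large and 19 of the small subunit) were taken as a set of housekeeping promoters, chosen by name out of 21887 protein-coding mouse genes. The choice was made with earlier results of these data known, and 24 other cytoplasmic ribosomal protein genes are not among the 55. Their chromatin contacts were read from H3K4me3 PLAC-seq, in which DNA in close proximity is ligated inside the nucleus and the ligation products that carry histone H3 trimethylated at lysine 4, a mark of active promoters, are immunoprecipitated and sequenced. All groups used here were F123 mouse cells in which the CTCF protein is fused to an auxin-inducible degron (CTCF-AID), so that added auxin removes CTCF. The 4 groups, of 2 samples each, were embryonic stem cells (ESCs) with 0 h of auxin (ESC control), ESCs after 48 h of auxin (ESC auxin), and neural precursor cells (NPCs) at day 4 of differentiation without auxin (NPC control) or with it (NPC auxin). The remaining 6 samples, in 3 groups with dCas9 directed to Vcan, were not analysed here. Whether the line is 1 clone was not given in the sources used here, and CTCF itself is not measured by these files.

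Ribosomal proteins are made in matched amounts in nearly all cells, from promoters that are rich in CpG and constantly active. Many of their transcripts begin in a run of pyrimidines at the start site. CTCF is a zinc finger protein at which cohesin stalls, and it anchors many of the loops and domain borders that contact maps show.

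A called contact, or loop, is a pair of 10 kb bins of the mm10 genome with more ligation reads between them than the caller's background. Each group was represented by 1 deposited list from the caller MAPS and 1 from the caller FitHiChIP, so the groups could not be tested against replicate spread. MAPS listed 56714 loops for ESCs without auxin and 27610 with it, and 82861 and 41667 for NPCs. A member stands for the bin of its transcription start site, and its loops are those with either anchor in that bin. The comparison was made with the 24037 other bins on autosomes that the lists mark as holding an H3K4me3 peak, of which 12799 hold a start site of a protein-coding gene. Intervals are exact 95% intervals and cover counting error only. They treat loops as independent and are too narrow in that respect, since many partners are adjacent bins: the 184 member loops of ESC control lay in 114 separate runs of partner bins, and the 429 of NPC control in 219. Neither the ESC markers nor the NPC markers fixed for a check of cell type (5 genes each) were told apart by these peak marks. The NPC markers had a marked start-site bin in all 4 lists, and the ESC markers in 3 to 5 of 5 cases. The short-range reads were higher in NPC control than in ESC control at all 5 NPC markers, for example 1908 against 529 at Sox1, a neural transcription factor. Of the ESC markers, Pou5f1 (786 in ESC and 561 in NPC control), Nanog (563 and 421) and Dppa5a (232 and 180) had fewer reads in NPCs, Zfp42 had more (651 and 761), and Esrrb was listed with reads in NPC control only (765). The median ratio of NPC to ESC control reads at other marked bins was 1.82.

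All 45 members in the RefSeq promoter table of assembly GRCm38.p6 had their start site in a marked bin, against 66.3% of all 16457 autosomal protein-coding genes in that table. A bin can be marked only where it anchors a called loop in some list, so these shares depend on loop calling as well as on peaks. The other 10 members were placed by their gene ends. The windows of 250 bases before to 50 after the start site held a median of 22 CpG dinucleotides at the members, 21 at the 10704 other genes in marked bins and 14 at all 16412 other genes. The letters CCGGAAG, an ETS-type site searched on both strands, were in 17 of 45 member windows (37.8%), in 16.9% of the other windows in marked bins and in 12.2% of all others. A pyrimidine run CTTTC or CTTTT on the sense strand within 25 bases of the start site was in 17 of 45 (37.8%), against 8.17% and 9.85%. A CTCF core, searched as CC, any 3 bases, AG, any 2 bases and GGC, was in 5 of 45 (11.1%), against 13.1% and 10.1%, the letters TATAAA in 2 of 45 (4.44%), against 7.11% and 13.6%, and AAGATGGC, a YY1-type site, in 3 of 45 (6.67%), against 4.17% and 3.22%, each on both strands. Below are the windows of Rps24 and Rpl7a, which had the most loops among members with a window, and of Rps13 and Rps2, which had the most loops in all 4 lists. They are written 5′ to 3′ along the gene from RefSeq, with capitals where one of these strings was found on the strands and within the positions stated.
Rps24, chr14:24490428-24490727, plus strand: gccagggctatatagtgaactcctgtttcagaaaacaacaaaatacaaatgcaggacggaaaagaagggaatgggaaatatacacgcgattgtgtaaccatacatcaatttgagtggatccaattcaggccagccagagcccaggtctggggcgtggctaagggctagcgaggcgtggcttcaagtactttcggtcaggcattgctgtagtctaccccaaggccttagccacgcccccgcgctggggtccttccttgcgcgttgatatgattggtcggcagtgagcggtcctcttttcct
Rpl7a, chr2:26910557-26910856, plus strand: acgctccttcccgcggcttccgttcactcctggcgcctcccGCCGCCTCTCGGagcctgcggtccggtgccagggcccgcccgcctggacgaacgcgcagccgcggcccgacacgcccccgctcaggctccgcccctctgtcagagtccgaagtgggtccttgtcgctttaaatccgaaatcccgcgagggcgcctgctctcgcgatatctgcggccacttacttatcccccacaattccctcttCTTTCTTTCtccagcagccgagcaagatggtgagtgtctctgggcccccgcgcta
Rps13, chr7:116334141-116334440, minus strand: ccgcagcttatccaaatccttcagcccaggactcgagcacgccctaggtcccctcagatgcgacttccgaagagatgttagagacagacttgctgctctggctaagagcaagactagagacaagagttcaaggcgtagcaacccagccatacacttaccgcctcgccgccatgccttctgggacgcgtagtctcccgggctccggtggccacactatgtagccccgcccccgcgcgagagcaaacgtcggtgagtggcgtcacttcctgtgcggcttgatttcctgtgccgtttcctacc
Rps2, chr17:24719813-24720112, plus strand: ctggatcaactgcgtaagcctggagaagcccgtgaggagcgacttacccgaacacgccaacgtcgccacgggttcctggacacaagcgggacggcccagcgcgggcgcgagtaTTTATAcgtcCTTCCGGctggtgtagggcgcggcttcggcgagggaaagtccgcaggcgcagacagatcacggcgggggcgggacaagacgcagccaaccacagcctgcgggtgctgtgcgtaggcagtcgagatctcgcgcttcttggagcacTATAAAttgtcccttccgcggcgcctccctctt
In Rpl7a the capitals are a CTCF core on the minus strand and 2 overlapping CTTTC strings, and in Rps2 they are TATAAA in each orientation and the ETS-type string on the minus strand. The window of Rps13 held none of these strings, that of Rps24 held CTTTC and CTTTT only beyond 25 bases from the start site, and no string was common to these 4 windows. A match describes letters only, not binding.

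In ESC control the 55 member bins held 184 loops, 3.35 per bin (95% interval 2.88 to 3.87) with a median of 3. In ESC auxin they held 150, or 2.73 per bin (2.31 to 3.20), with a median of 1. In NPC control they held 429, or 7.80 per bin (7.08 to 8.57), with a median of 6, and in NPC auxin 266, or 4.84 per bin (4.27 to 5.45), with a median of 3. Relative to the mean of the other marked bins the ESC lists gave 1.11 (0.95 to 1.28) without auxin and 1.72 (1.46 to 2.02) with it, and the NPC lists 1.83 (1.66 to 2.01) and 2.13 (1.88 to 2.40). Against the other marked bins with a start site the ratios were 1.07, 1.58, 1.50 and 1.70. In the MAPS list of ESC control the member interval spans the level of the other marked bins, and in the other 3 lists it lies above. The ESC control ratio to all other marked bins was above 1 in the FitHiChIP list, at 1.57 (1.34 to 1.81). Rps18, described further below, gave 29 of the 179 member loops there. At members with no other start site in the bin, set against the same unrestricted background, the MAPS ratio was 1.38 (1.15 to 1.65). Members without any loop numbered 10 and 20 in the ESC lists and 5 and 14 in the NPC lists, control before auxin. In the NPC control list 18 members (32.7%) had 10 or more loops, against 12.5% of the other marked bins.

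**Figure D1:**
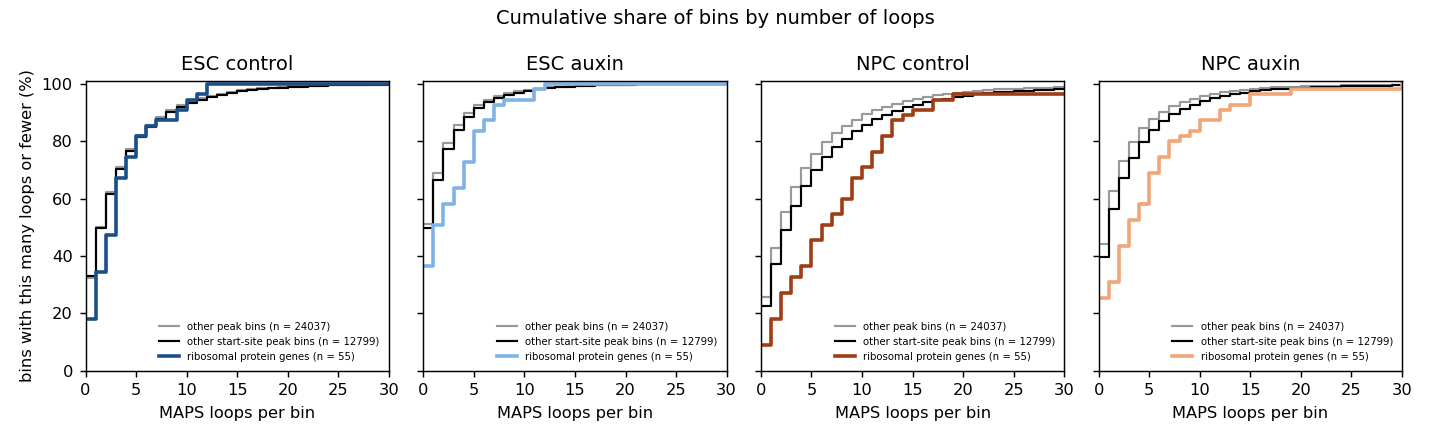
Cumulative share of bins (y axis, percent) with a given number of MAPS loops or fewer (x axis) in each of the 4 lists, for the 55 ribosomal protein gene bins, the 12799 other marked bins with a start site and the 24037 other marked bins. The member curve meets the others at 5 or more loops in ESC control and runs below them over most of the axis in the other 3 panels.

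Member bins also held more reads. MAPS lists the short-range reads of each anchor bin, which reflect its H3K4me3 signal and are given only for bins with a loop. Their median at the members was 543 without and 604 with auxin in ESCs, and 1132.5 and 1011 in NPCs, against 278, 360, 515 and 603 at the other marked bins. Among bins whose reads fell within the members' own quartiles, the mean number of loops was 3.61 at 23 members and 6.07 at 2233 other bins in ESC control, a ratio of 0.594. The same ratio was 0.846 in ESC auxin (17 members, 1447 other bins), and for NPCs 0.962 without auxin (24 and 3512) and 0.985 with it (21 and 2636). At like reads the members thus had fewer loops than other marked bins in ESC control (member interval 2.87 to 4.47), and in the other 3 lists the mean of the other bins lay within the member interval. The medians were 3 at the members and 4 at the other bins in ESC control, and 4 and 3 in ESC auxin. In NPCs they were 6 and 5 without auxin and 4 and 3 with it, so in these 3 lists the medians were higher at the members. The part that reads play in the excess was not tested beyond this comparison.

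**Figure D2:**
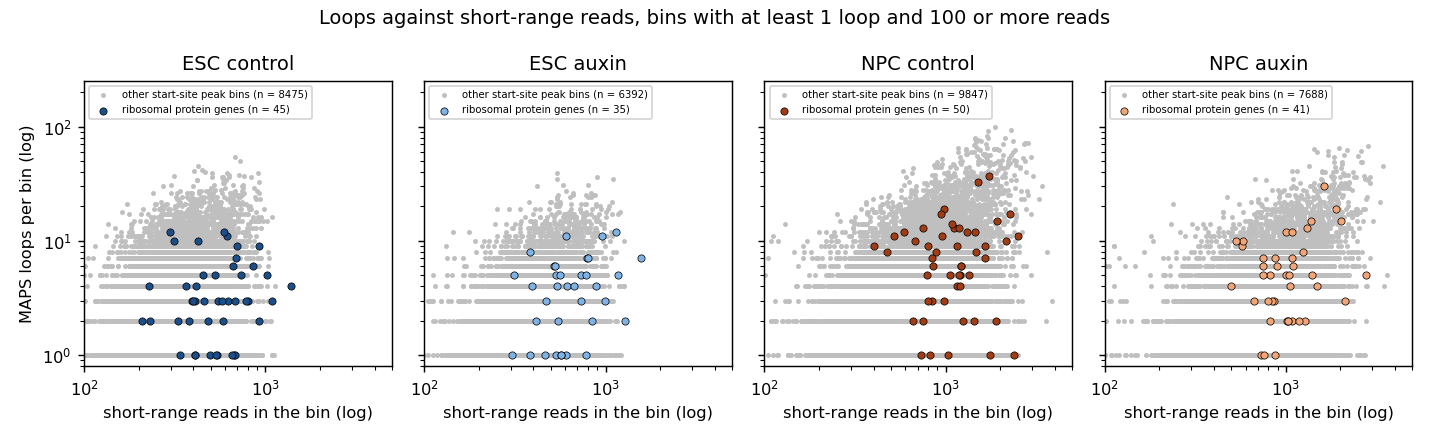
MAPS loops per bin (y axis, log scale) against short-range reads of the bin (x axis, log scale) for ribosomal protein gene bins and other marked start-site bins with at least 1 loop and 100 reads, 1 panel per list. Member points lie towards the right, with median reads of 543 to 1132.5 against 327 to 827 at the other start-site bins, and mostly sit inside the cloud of other bins.

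Loops were unevenly spread over the members. The 8 bins with the most loops held 393 of the 1029 member loops summed over the 4 MAPS lists (38.2%), 28 members had a loop in every list, and Rps18 had none in any. Large subunit genes had a mean of 3.19, 3.06, 7.86 and 4.72 loops in the order ESC control and auxin, then NPC control and auxin, and small subunit genes 3.63, 2.11, 7.68 and 5.05. The subunits differed most in ESC auxin, where 11 of 36 large and 9 of 19 small subunit genes had no loop. The 30 bins that hold no other start site had means of 4.17, 2.77, 8.90 and 4.70, and the 25 shared bins 2.36, 2.68, 6.48 and 5.00. Of the members named below, Rpl4, Rpl7, Rpl7a, Rpl8, Rpl9, Rpl17, Rpl19, Rpl24, Rpl35, Rpl37, Rplp0, Rps2, Rps18 and Rps25 have shared bins. Contacts of these bins cannot be assigned to the ribosomal protein gene alone. Members with a listed start site (45) had means of 3.49, 2.67, 6.73 and 4.27. Those placed by gene ends (10, with Rpl7 and Rpl8 among them) had 2.7, 3, 12.6 and 7.4.

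**Figure D3:**
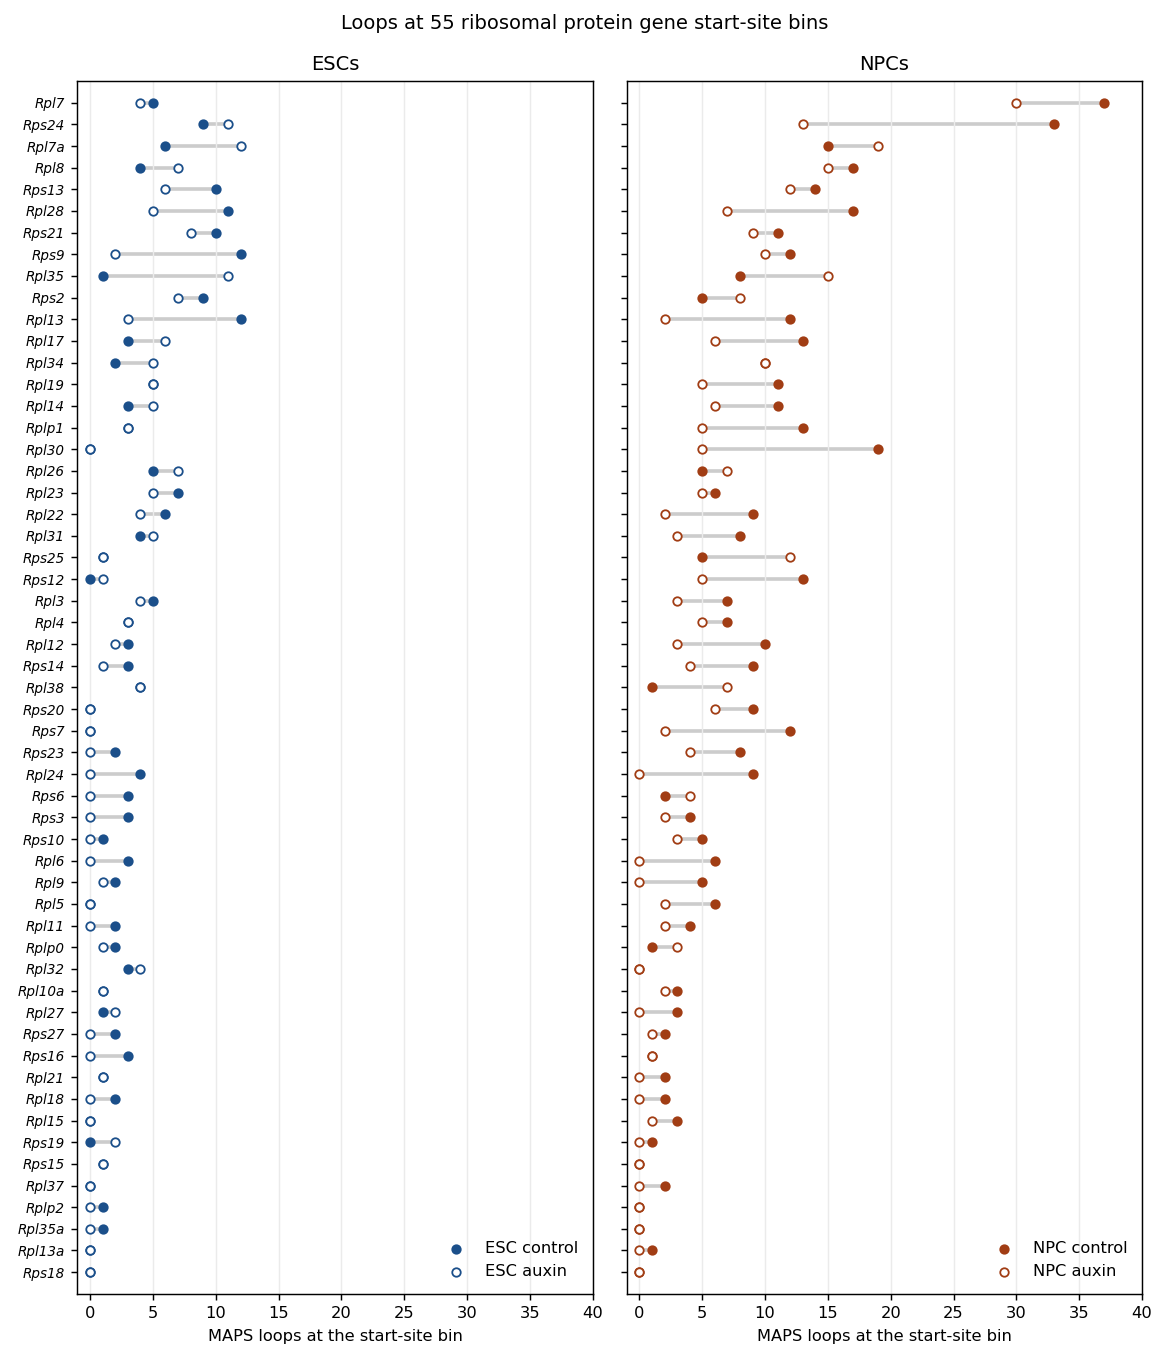
MAPS loops (x axis) at each of the 55 ribosomal protein gene bins (y axis, ordered by their sum over the 4 lists), with filled circles for control and open circles for auxin, ESCs on the left and NPCs on the right. Rpl7 and Rps24 lead in NPC control with 37 and 33 loops, and no member exceeds 12 in either ESC list.

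Among large subunit genes, Rpl7 (chromosome 1, bin 16100001 to 16110000) held 5 loops in ESCs without auxin, 4 with it, and 37 and 30 in NPCs. Its bin also holds the start site of Rdh10, a retinol dehydrogenase of retinoic acid synthesis, and the bins cannot tell these genes apart. In NPC control its partners lay on both sides, 9 at lower and 28 at higher positions, up to 580 kb away. They took in the starts of Terf1, a telomere binding protein, of Stau2, an RNA-binding protein of neuronal transport, and of Ube2w, Eloc, Tmem70, Sbspon and Ly96. The Terf1 contact, 300 kb away, had 62 reads in NPCs without auxin and 77 with it, and was called in neither ESC list. The bin's short-range reads were 455 and 540 in the ESC lists and 1729 and 1624 in the NPC lists, so that reads and loops were both high in NPCs.

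Rpl7a (chromosome 2, bin 26910001 to 26920000), which shares its bin with the starts of Med22, Surf1 and Surf2, held 6, 12, 15 and 19 loops in the same order. It was among the members with more loops under auxin in both cell types. Its partners reached Sec16a, a protein of endoplasmic reticulum exit sites, 470 kb away in all 4 lists, with 30, 39, 36 and 65 reads, and the start of Notch1, a receptor of cell fate choice, in NPC auxin. Rpl8 (chromosome 15, bin 76900001 to 76910000), whose product lies near the peptidyl transferase centre, held 4, 7, 17 and 15 loops in a gene-dense stretch with Foxh1, Cyhr1 and Recql4. Rpl28 (chromosome 7, bin 4790001 to 4800000) held 11, 5, 17 and 7, fewer under auxin in both cell types, and all partners of its control lists lay on 1 side.

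Among small subunit genes, Rps24 (chromosome 14, bin 24490001 to 24500000), which is mutated in Diamond-Blackfan anaemia, held 9, 11, 33 and 13 loops. In NPC control all 33 lay at higher positions, at a median distance of 630 kb and up to 1000 kb, and the partner with a gene start was Zmiz1, a transcriptional coregulator. The Rps24 to Zmiz1 loop spanned 960 kb, was called in all 4 lists by both callers and had 32, 22, 59 and 46 reads. Rps13 (chromosome 7, bin 116330001 to 116340000) held 10, 6, 14 and 12 loops, and its MAPS contact with the most reads, 20 kb away with 124, was in NPC auxin alone. FitHiChIP listed Rps13 contacts with up to 143 and 169 reads in the ESC lists and 274 in NPC auxin. Rps21 (chromosome 2, bin 180250001 to 180260000) held 10, 8, 11 and 9 and changed little over the lists, with partners at Adrm1 and Psma7, which encode parts of the proteasome, and Mtg2. Rps9 (chromosome 7, bin 3700001 to 3710000) held 12, 2, 12 and 10, so that ESC auxin stood apart from the other 3 lists.

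No MAPS loop joined member bins to each other. FitHiChIP, whose lists reach 2000 kb, called Rps9 with Rpl28 at 1090 kb, with 13 reads in each NPC list (q-values of 0.0038 in control and 0.0097 with auxin) and in no ESC list.

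Over the 4 lists the members had 647 distinct loops. Of these, 393 (60.7%) were in 1 list and 36 (5.56%, 3.93 to 7.62) in all 4, against 63.0% and 4.98% of the loops of other marked bins. The 36 belonged to 21 members, with 4 each for Rps2 and Rps13. The strongest by summed reads was a 50 kb contact of Rplp0, a protein of the ribosomal stalk, with 134, 108, 242 and 239 reads. Rps2 contacted 2 neighbouring bins at 160 and 170 kb, with 113, 117, 145 and 148 reads at the one of Nubp2 and Spsb3 and 90, 95, 129 and 153 at the one of Eme2, Nme3 and Mrps34, a mitochondrial ribosomal protein. Counts at these Rplp0 and Rps2 contacts were higher in both NPC lists than in both ESC lists. The other Rps2 contacts in all 4 lists were not, with 65, 75, 45 and 62 reads at 150 kb and 52, 50, 42 and 50 at 140 kb.

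At several other contacts called in all 4 lists, those of Rpl26, Rpl4, Rpl22 and Rpl23 below, control counts exceeded auxin counts in both cell types. The 80 kb contact of Rpl26 with Pfas, an enzyme of purine synthesis, had 153 and 83 reads in ESC control and auxin and 153 and 90 in NPC control and auxin. Rpl4 had a 100 kb contact with 135, 88, 148 and 77 reads, beside a 110 kb contact at Tipin, a replication fork protein, with 125, 110, 138 and 125. Rpl22 at 150 kb had 114, 72, 89 and 82 reads, and Rpl23 at 200 kb, with Plxdc1 and Arl5c, had 91, 63, 104 and 64. Rps14 at 50 kb, with 114, 130, 137 and 124 reads, and Rpl19 at 130 kb, with 57, 76, 91 and 83, were higher with auxin in ESCs and lower with it in NPCs. Reads are as listed, without scaling for depth between lists.

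Partner bins were marked as H3K4me3 peaks in 80 of 184 member loops in ESC control (43.5%, 36.2 to 51.0) and 47.3% with auxin (39.1 to 55.6), and in 33.8% (29.3 to 38.5) and 45.5% (39.4 to 51.7) of the NPC loops. At the other marked bins the shares were 41.1%, 52.3%, 30.8% and 40.5%. The other bins' shares lay within the member intervals throughout. The peak marks came from the lists themselves, where only anchors of called loops appear, so they cannot show whether H3K4me3 was gained or lost after auxin. A start site of a protein-coding gene was in the partner bin of 31.0%, 28.7%, 23.5% and 31.6% of member loops, against 25.7%, 33.4%, 23.8% and 30.4%.

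Member loops had a median distance of 200 kb (180 to 220) and 230 kb (200 to 280) in ESCs without and with auxin, and 280 kb (260 to 310) and 295 kb (270 to 330) in NPCs. The medians at the other marked bins were 230, 250, 260 and 300 kb, above the member interval in ESC control and within or at the edge of it in the other 3 lists. The share of member loops of 500 kb or more was 8.70% and 7.33% in the ESC lists and 21.0% and 17.3% in the NPC lists, against 9.06%, 10.7%, 16.1% and 21.2%. In NPC control Rps24 and Rps9 had the longest loops of the 8 leading members, at medians of 630 and 755 kb, and the medians of Rpl7, Rpl7a, Rpl8, Rps13, Rpl28 and Rps21 lay between 160 and 340 kb.

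Removal of CTCF in ESCs was compared first. Of the 184 member loops of ESC control, 57 were called again in ESC auxin at the same pair of bins (31.0%, 24.4 to 38.2), against 25.0% at the other marked bins, and in the FitHiChIP lists the shares were 42.5% (35.1 to 50.1) and 42.1%. By the caller's FDR, loops of the strongest quartile of the list were called again in 42.4% of cases at the members and 45.0% at other bins, and those of the weakest quartile in 32.4% (12 of 37 loops) and 12.9%. Of the 150 member loops of ESC auxin, 38.0% (30.2 to 46.3) had been called in control, against 47.6% at the other bins. The member total of ESC auxin was 81.5% of that in control, against 52.5% at the other marked bins and 48.7% for the whole list. It went from 125 to 83 at the 30 member bins with no other start site and from 59 to 67 at the 25 shared bins. Thus the member total fell less, while the loops present under auxin were more often at pairs not called in control. The median per bin went from 3 to 1 at the members and from 1 to 0 at the other marked bins. Bins with any loop went from 81.8% to 63.6% of the members and from 67.7% to 48.9% of the others, a like fall.

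Bins were compared by the log2 ratio of loops (with 1 added to each count) less that of the 2 list totals, among bins with at least 5 loops over both lists. Values near 0 mean that a bin followed its list, and the added 1 lifts bins with few loops when the second list is shorter. For ESC auxin against control, 25 members qualified, and their median was 1.04 (0.72 to 1.36) against 0.30 at 7753 other bins. In 14 of 25 the value was at least 1, a 2-fold higher number relative to the list totals, beside 24.1% of all bins, and in 1 it was at most -1, beside 14.9%. In plain numbers 10 of 25 held more loops under auxin, beside 17.2% of all bins, and 11 fewer, beside 75.9%. Over all 55 members, without the limit of 5 loops, 26 held fewer loops, 16 the same number and 13 more. The 24037 other marked bins gave 12550, 7839 and 3648 in that order. The difference in bins with fewer loops was thus much smaller without that limit. At 5 to 9 loops over both lists the medians were 1.04 at 11 members and 0.23 at 4251 other bins, and at 10 to 19 loops 0.72 at 13 members and 0.26 at 2575. Among bins with reads within the members' quartiles they were 0.78 (11 members) and 0.40 (1699 other bins), and 4 of 11 members against 26.4% of other bins were at 1 or more. The FitHiChIP lists gave a smaller difference, with a median of 0.27 at 22 members and 0.15 at 4665 other bins, and member totals at 76.0% of control against 68.4%.

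The highest relative change in ESCs was at Rpl35, a protein at the exit tunnel of the large subunit, whose bin, shared with the start of Arpc5l, held 1 loop in control and 11 in auxin (log2 3.62). Of those partners 10 lay at lower positions, and they took in Nr6a1, an orphan nuclear receptor, and Lhx2, a LIM homeobox factor of the brain, 650 kb away. Its short-range reads were 494 and 604. Rpl34 went from 2 to 5 loops (2.04), with Lef1, a Wnt pathway transcription factor, among the partners under auxin, Rpl7a from 6 to 12 (1.93) and Rpl17 from 3 to 6 (1.85). Rpl17 was placed by the gene end with more short-range reads, so its bin may not hold its start site. The lowest were Rps9, from 12 to 2 (-1.08), and Rpl13, from 12 to 3 (-0.66), followed by Rpl28 at 0.04 and Rps13 at 0.39, which fell about as the list did. The 3 loops of Rpl13 under auxin all lay on its higher side, and the 10 on its lower side in control were not called. Those at 90 and 100 kb were in both MAPS lists, and the one at 110 kb, at the starts of Chmp1a, an ESCRT-III protein, and Spata33, was in the auxin list of MAPS (130 reads) and in both lists of FitHiChIP.

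In NPCs differentiated with auxin, 157 of the 429 control loops of the members were called again (36.6%, 32.0 to 41.4), against 28.9% at the other marked bins and 29.9% at those with a start site. Where the partner was also marked as a peak the share was 53.8% (45.3 to 62.1), against 39.0%, and where it was not, 27.8% (22.7 to 33.4) against 24.4%. Loops of the weakest FDR quartile gave 29.0% (20.4 to 38.9), against 3928 of 24538 loops at other bins, and those of the strongest 50.9% against 49.9%. Loops of 200 to 500 kb gave 42.4% (35.6 to 49.5) against 30.4%, and those over 500 kb 31.1% (21.8 to 41.7) against 33.4%. The bin of Rpl7 gave 23 of the 157, and without it the share was 34.2%. In the FitHiChIP lists it was 40.8% (35.3 to 46.6) against 38.6%, so that the excess over other bins was within counting error there.

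**Figure D4:**
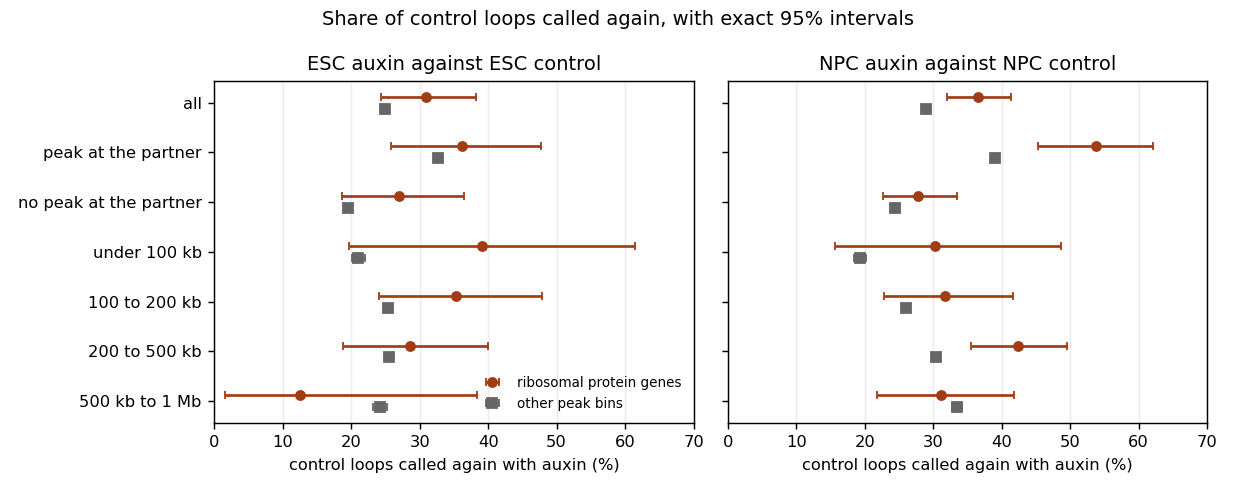
Share of control loops called again with auxin (x axis, percent) for ribosomal protein gene bins (circles) and other marked bins (squares), over all loops and by partner mark and distance (y axis), in ESCs (left) and NPCs (right). Bars are exact 95% intervals, and member intervals lie wholly above the other bins for all NPC loops, for those with a peak at the partner and for those of 200 to 500 kb.

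The number of member loops in NPC auxin was 62.0% of that in NPC control, against 53.3% at the other marked bins. Of 40 members with at least 5 loops, 7 were at a relative change of 1 or more, beside 16.9% of all bins, and 5 at -1 or less, beside 15.7%. In plain numbers 7 held more loops, beside 16.9%, and 32 fewer, beside 77% of all bins. Their median was 0.23 (-0.18 to 0.70) and that of 9498 other bins 0.25. By these counts the members changed with auxin in NPCs much as other marked bins did. Median short-range reads per bin with auxin were 0.914 times those of control at 41 members and 1.07 times at 11819 other bins, and in ESCs 1.17 and 1.22 times.

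The highest values in NPCs were at Rpl38, a protein needed for translation of some Hox transcripts, with 1 loop in control and 7 with auxin (log2 2.99), and at Rps25, with 5 and 12 (2.11). Under auxin 10 of the Rps25 partners lay at higher positions, against 1 in control, and 2 of the partner bins held starts of Ddx6, an RNA helicase of P-bodies, with 97 reads at 200 kb and 25 at 240 kb. Rpl35 had 8 and 15 loops (1.82), and the proteasome gene Psmb7 lay in a partner bin in both lists. Rps6, the target of S6 kinase, had 2 and 4 (1.73). The lowest were Rpl24, with 9 and 0 loops, and Rpl6, with 6 and 0, both of which also went from 4 and 3 in ESC control to 0 in ESC auxin, and Rpl9, with 5 and 0. FitHiChIP likewise listed 3 and 6 loops at Rpl24 in the controls and 0 under auxin in both cell types, while at Rpl9 it listed 2 and 1 in NPCs. Rpl13 and Rps7 followed, each with 12 and 2 loops (-1.12).

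Differentiation with CTCF present was compared last. Member totals in NPC control were 233% of those in ESC control, against 141% at the other marked bins, 166% at those with a start site and 146% for the whole list. The 45 members with a listed start site held 157 loops in ESC control and 303 in NPC control. At the 10 members placed by gene ends the totals were 27 and 126, a steeper rise. Of 39 members with at least 5 loops, 16 were at a relative change of 1 or more, beside 16% of all bins, and 2 at -1 or less, beside 20.3%. In plain numbers 32 held more loops in NPCs, beside 60.9%, and 4 fewer, beside 31.6%. The median was 0.45 (0.04 to 1.04), against -0.13 at 11012 other bins and 0.04 at 6403 others with a start site. Among bins with reads within the members' quartiles the medians were 0.04 (21 members) and 0.11 (2943 other bins), so that the difference was not seen there. Reads per bin were 1.99 times as high in NPCs at the members, 1.82 times at the other marked bins and 2.26 times at those with a start site. Of the NPC control loops of the members, 25.2% (21.1 to 29.6) had been called in ESC control, against 36.6%. The FitHiChIP totals were 171% and 131%.

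The highest change was at Rpl30, with 0 loops in ESC control and 19 in NPC control, all at lower positions towards Mtdh, Laptm4b and Matn2. Rps12 held 0 and 13 loops, Rps7, which can bind the p53 regulator Mdm2, 0 and 12, and Rps20 0 and 9. The zinc finger gene Plag1 was among the partners of Rps20. MAPS called none of these 4 in ESC control, where FitHiChIP listed 0 at Rpl30, 2 at Rps12, 1 at Rps7 and 2 at Rps20, so log2 values there depend on the added count. The lowest were Rpl38, with 4 and 1 loops (-1.87), Rps2, with 9 and 5 (-1.28), Rps6, with 3 and 2 (-0.96), and Rpl23, with 7 and 6 (-0.74).

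**Figure D5:**
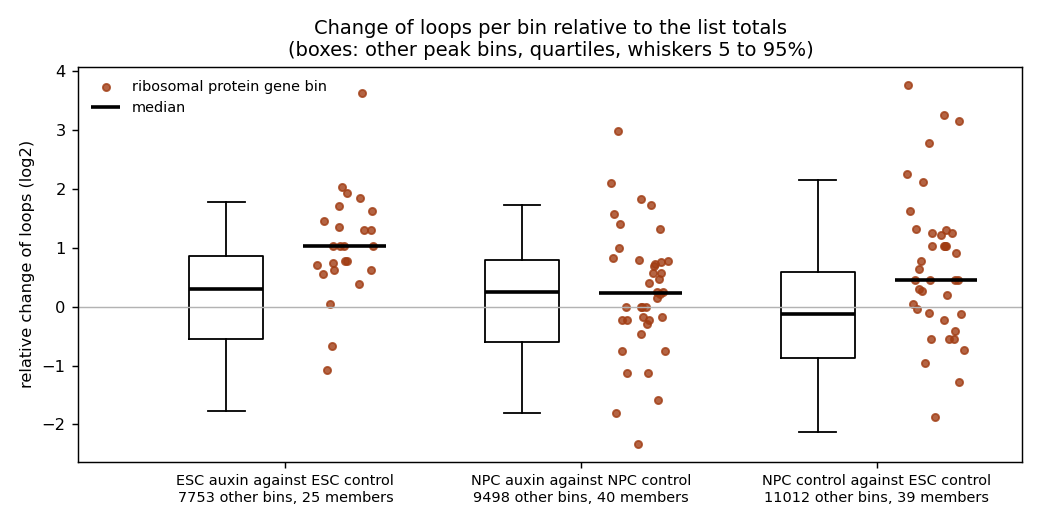
Relative change of loops (y axis, log2, list totals set to 0) at ribosomal protein gene bins (points, with their median as a bar) beside other marked bins (boxes with quartiles and whiskers from 5 to 95%), for the 3 comparisons along the x axis. Medians of members and others are 1.04 and 0.30 in ESCs with auxin, 0.23 and 0.25 in NPCs with auxin, and 0.45 and -0.13 for NPC against ESC control.

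Related gene lists were described in the same way. The 18 marked autosomal bins of other cytoplasmic ribosomal protein genes held 75 loops in ESCs and 70 with auxin (93.3%), and 163 in NPCs and 102 with auxin (62.6%), and their median relative change in ESCs was 1.09 over 12 bins. Of their ESC control loops 42.7% (31.3 to 54.6) were called again. In ESCs the auxin total was 53.2% of control at 76 bins of mitochondrial ribosomal protein genes, 60.2% at 29 bins of proteasome genes and 45.7% at 15 bins of other translation genes whose transcripts start in pyrimidine runs. The cytoplasmic ribosomal protein genes, listed here or not, were thus the lists with the highest ESC auxin totals relative to control among these 5, and in NPCs the proteasome (76.3%) and mitochondrial ribosomal protein genes (63.5%) were higher. These totals include bins shared with other start sites, where the member total was higher in ESC auxin than in ESC control.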

How the data were processed

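H3K4me3 PLAC-seq loops were taken from 8 deposited lists, 1 per group and caller. BWA, Picard and mm10 are named, without versions, in the submitters' processing notes; pooling of a group's 2 samples was not given in the sources used here. Per the file headers, MAPS lists hold a read count per bin pair, short-range read counts of both anchors, the ratio to the caller's expected count, an FDR (an adjusted p-value) and peak marks. The deposited FitHiChIP lists hold contact counts, anchor coverage counts, peak marks and a q-value. In the authors' MAPS values counts started at 12 and ratios at 2.0, with FDR under 0.01 and the distance 20 to 1000 kb on 19 autosomes. FitHiChIP reached 2000 kb, with X and Y.

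MAPS was primary and FitHiChIP the alternative. Member bins came from RefSeq start sites (45 members), or from a gene end in a marked bin (10, of which 8 had both ends in 1 marked bin; for Rpl3 and Rpl17 the end with more short-range reads was used). Python 3.11.15 with pandas 2.3.3, numpy 2.4.6 and scipy 1.17.1 counted loops per bin, a loop between bins of a set counting at each. Shares carry Clopper-Pearson, means Poisson and medians order-statistic intervals, all at 95%. The counting code was tested on simulated lists.

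The members and gene lists were chosen with earlier results of these data known. Named were the 8 members with the most loops, the 4 highest and lowest (ties included) by relative change per comparison, members with no MAPS loop or joined to another member, the 10 strongest loops in all 4 lists, and 4 promoters. Partner genes and other members of interest were named after their values were seen. Alternatives were another caller, the 50% of loops with the lowest FDR, neighbouring bins, unshared bins, a tolerance of 1 bin, a pseudocount of 0.5 and no scaling. The other gene end, leaving out Rpl7, other background bins, and bins with like reads or loop numbers were added after the data were seen.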

Additional observations from a re-analysis of the deposited data

Results flagged for a closer look

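Among members with at least 5 loops over control and auxin in each cell type, the loop number moved in opposite directions with auxin in the 2 cell types at 6. Members with fewer loops were not considered here. With 1 list per group this difference was not tested. Auxin minus control was 2 in ESCs and -20 in NPCs at Rps24, 3 and -7 at Rpl17, 2 and -5 at Rpl14, 1 and -5 at Rpl31, 3 and -2 at Rpl8, and -2 and 3 at Rps2. The NPC list as a whole fell to 50.3% of control and the ESC list to 48.7%, so members with more loops in ESCs went against their list.

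Some ribosomal protein genes had called loops mostly or only in lists or distances outside the MAPS comparison. Rps18 (chromosome 17, bin 33950001 to 33960000), with no MAPS loop, held 29 FitHiChIP loops in ESCs without auxin, 22 with it, and 23 and 21 in NPCs, more than any other member in ESCs. Their median distance was 1360, 1385, 1360 and 1370 kb, and only 5, 0, 1 and 0 of them lay within the 1000 kb that MAPS lists. The partners took in H2-D1 and H2-Q genes of the major histocompatibility complex in all 4 lists. Whether reads of these regions map uniquely in F123 cells was not tested, so these contacts are given as the caller lists them. Rpl37 held 7 FitHiChIP loops in ESC auxin and 8 in NPC auxin with none in MAPS, and 2 and 0 of these were within 1000 kb. On the X chromosome, which MAPS does not list, FitHiChIP gave 3, 3, 4 and 3 loops at Rpl10 in the 4 lists. It gave 1, 1, 4 and 3 at Rps4x, 2, 1, 1 and 2 at Rpl36a, and 4, 4, 7 and 4 at Rpl39. The X-linked genes are not among the 55 members.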

How the results depend on the processing

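No paired analysis was possible because each group had 1 list, and for the same reason no replicate could be left out. Of 118 values under alternatives, 90 moved by less than counting error and 28 by more. The FitHiChIP lists gave 12 of the 28 and only 5 of the 90. Leaving out Rpl7 and taking the other gene end of Rpl3 and Rpl17 gave 17 of the 90 each, but these alternatives alter few member bins. In the FitHiChIP lists the ratio of member to other marked bins was 1.57 in ESC control and 2.04 in NPC control, the share of loops with both anchors marked 80.4%, 80.1%, 69.6% and 87.2% (ESC control, ESC auxin, NPC control, NPC auxin), the median distance 290, 350, 460 and 370 kb, the share called again in ESCs 42.5%, and the relative change with auxin in ESCs 0.27 (log2). Rps18 alone held 29, 22, 23 and 21 of the 179, 136, 306 and 195 member loops of these lists. With the 50% of loops of lowest FDR, the median distance was 160, 165, 210 and 240 kb and both anchors were marked in 42.9% of NPC control and 55.5% of NPC auxin loops. Counting neighbouring bins gave ratios of 1.53 in NPC control and 1.87 in NPC auxin, bins with no other start site 1.38 in ESC control and 2.09 in NPC control, and start-site bins as background 1.50 and 1.70 in NPC control and NPC auxin. With a tolerance of 1 bin, 54.3% of ESC and 58.0% of NPC control loops of the members were called again, against 48.2% and 51.8% at other marked bins. Without scaling by list totals the median change with auxin was 0 in ESCs and -0.76 in NPCs, the latter opposite in sign to the scaled 0.23, whose interval spans 0. The cause of these shifts was not tested, except that FitHiChIP also lists loops of 1000 to 2000 kb.

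The main limit is 1 list per group. Loops are thresholded calls, and a pair that is not listed can lie just under the threshold, and depth differs between lists. A 10 kb bin cannot separate a ribosomal protein gene from neighbours in 25 of 55 cases. Of the related lists, none had more than 76 marked bins.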
